A study of Bos taurus with 12 samples.

Results

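The endometrium of 3 contemporary cows was compared with that of 4 old females (OF), 7 of the 12 arrays of the series. The members are the arrays titled Contemporary cow 1068, 1128 and 1129 and the arrays titled Old Cow 0233, 0234, 0245 and 2258. A further contemporary cow, 1111, was left out of the main comparisons between the groups. The labels state that the authors excluded it for a phenotype unlike that of its group. Its values, and alternative fits that include it, serve only as a check. The OF were Holstein cows 13 to 14 years old that had never calved, and they were somatic clones of a single donor cow, so that they share a nuclear genome with each other and with the 4 young females (YF, 4 to 5 years, 1 calving) of the series. For the contemporary cows, the labels give no age, breed, parity or genotype, and the paper does not analyse them. Age, parity, cloning and genotype therefore cannot be told apart in this comparison, and "contemporary" is used here only as a group name. Every cow was synchronised, and its uterus was biopsied on Day 15 of the oestrous cycle. Total RNA of each animal was hybridised in 1 colour to its own custom bovine array.

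The endometrium on Day 15 is under the influence of progesterone. Its luminal and glandular epithelium secretes the histotroph that feeds a conceptus before implantation, part of that epithelium carries motile cilia, and the stroma beneath holds fibroblasts, vessels and immune cells. The myometrium, made of smooth muscle, lies directly under it, and a biopsy can hold some of either layer. Levels are given as the log2 of the intensity over the 75th percentile of its own array, so that 0 is that percentile, and a log2 difference is always contemporary minus OF, with its standard error (SE). In biopsies, fewer cells of a type and less RNA per cell cannot be told apart. The 75th percentile lay between 1030 and 1597 on the contemporary arrays and between 968 and 1335 on the OF arrays, 0 probes were saturated, and 71.5% to 74.9% of the probes were well above background. The number of arrays limits the precision of every value. The 3 contemporary arrays lay on 1 slide with 3 of the OF, and OF 0245 and cow 1111 lay on the other.

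Before any result, 2 OF arrays stood apart from the rest. Smooth muscle transcripts were abundant in OF 2258 and OF 0234 and low in OF 0233, in OF 0245 and in all contemporary cows. For ACTA2, the actin of smooth muscle, the levels were 4.69, 3.88 and 3.98 in contemporary cows 1068, 1128 and 1129, and 3.63, 7.47, 4.89 and 8.72 in OF 0233, 0234, 0245 and 2258. The contemporary cows thus lay within the range of the OF, near its lower end. In OF 2258 the epithelial and ciliary transcripts were also low, and the immediate early and heat shock transcripts high. Correlations across the tested transcripts, which are not independent replicates, were 0.972 to 0.981 among contemporary arrays, 0.93 to 0.986 among OF arrays and 0.927 to 0.98 between the groups, so that the arrays of different groups were about as alike as those of the OF among themselves. Median differences without OF 2258 are therefore given with each list of genes. A refit with a smooth muscle score as a covariate is given for some transcripts and for the epithelial list. Beyond that refit, the part of these differences in biopsy content in any result was not tested.

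No transcript passed the threshold in the comparison of contemporary cows with OF. A transcript was tested where at least 1 of its probes exceeded background on all arrays of either group. Of 19914 such transcripts, 0 (0.0%) reached an adjusted p of 0.05, and the smallest adjusted p was 0.321 (limma). At an unadjusted p of 0.05 there were 911 transcripts (4.57% of those tested), 515 of them higher (2.59%) and 396 lower (1.99%) in contemporary cows. The groups did not overlap for 1153 transcripts (5.79%), 570 with all contemporary cows above all OF (2.86%) and 583 with all of them below (2.93%). A log2 difference of 1 or more in size was measured for 893 transcripts (4.48%), of which 521 were higher (2.62%) and 372 lower (1.87%). The median difference over all transcripts was -0.04. On simulated arrays of the same spread, a log2 change of 2 in 200 transcripts was recovered for 69.2% of them. The simulated transcripts varied independently of each other, whereas the content of the real biopsies differed between animals. That share therefore may not hold for these data. The transcripts named below are, among the 650 (3.26%) with both an unadjusted p of 0.05 and groups that did not overlap, those with a gene symbol and the largest differences, 1 per symbol and 8 in each direction. The symbol rule passed over ENSBTAT00000050266 (3.1) and ENSBTAT00000066254 (2.54) on the high side and ENSBTAT00000035482 (-2.86) on the low side, which are described further on, and a second transcript of C4BPA (-2.39). They were chosen by the difference itself, so their values are a description, and their adjusted p (0.518 to 0.912) fails the threshold in every case. Their sizes depend on the background correction, since with normexp 11 of the 16 were smaller by over 1.5 times on the log2 scale.

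Of the 8 named transcripts above the OF, HSD17B13 had the largest difference. HSD17B13, a hydroxysteroid dehydrogenase of lipid droplets best known from the liver (chromosome 6, 103971537 to 103991240 on UMD3.1), had levels of -0.07, 0.95 and 3.29 in contemporary cows and -3.60, -2.37, -2.33 and -3.16 in OF. All contemporary cows lay above all OF, although the contemporary cows differed among themselves by more than the OF did. The difference was 4.25 (SE 0.76), 19.1-fold and the largest above 0 of all transcripts tested, and it was 4.15 without OF 2258 and 3.30 without contemporary cow 1129. Cow 1111 had the highest level of any animal, 3.54, and YF lay between -4.07 and -0.61.

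ACSM1, a mitochondrial acyl-CoA synthetase of medium-chain fatty acids, was at -1.26, 0.62 and -0.22 in contemporary cows and at -3.22, -2.45, -2.63 and -6.08 in OF, a difference of 3.31 (SE 0.91). The lowest OF value was that of OF 2258, and without it the difference was 2.48. TTR, the plasma carrier of thyroxine and, with its partner, of retinol, was at -0.32, -2.10 and 0.87 against -3.13, -2.76, -2.35 and -4.67, a difference of 2.71 (SE 0.78). Contemporary cow 1128 lay close to the highest OF, and the other 2 lay well above. NR1I2, the pregnane X receptor, which senses steroids and foreign compounds, was the most uniform of the group. Its levels were -4.02, -3.91 and -4.13 in contemporary cows and -6.76, -6.10, -6.00 and -7.32 in OF. The difference was 2.53 (SE 0.33), and it lay between 2.27 and 2.71 whichever animal was left out, but it was 0.80 with normexp. In cow 1111, NR1I2 was at -5.51, nearer to the OF.

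IGFBP2, which binds insulin-like growth factors and is a secretory product of the uterus, was at -1.14, -1.74 and -1.24 in contemporary cows and at -2.02, -4.28, -2.94 and -5.90 in OF, a difference of 2.41 (SE 0.84). OF 0233 lay just below the contemporary cows, and OF 2258 lay furthest away. The difference was 1.71 without OF 2258 and 1.0 with the smooth muscle score as a covariate, and that from the YF was 0.53. PLAC8A, of the PLAC8 family of small cysteine-rich proteins, differed by 2.81 (SE 0.69), with contemporary cows at -1.40, -2.42 and -0.14 and OF at -3.58, -4.22, -3.18 and -5.56. The remaining 2 are best known from the testis. ZSWIM2, a ubiquitin ligase, was at -5.22, -3.43 and -3.70 in contemporary cows and at -6.91, -7.18, -6.09 and -8.23 in OF, where it was well above background on 1 of 4 arrays. ASZ1, of the piRNA machinery of germ cells, was at -4.46, -4.43 and -4.65 against -7.00, -6.60, -6.39 and -8.54, and it was well above background on 2 of 4 OF arrays. With normexp the differences of ZSWIM2 and ASZ1 fell from 2.98 and 2.61 to 0.81 and 0.56. The next transcript by the same rule, symbol included, would have had a difference of 2.40.

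**Figure D1:**
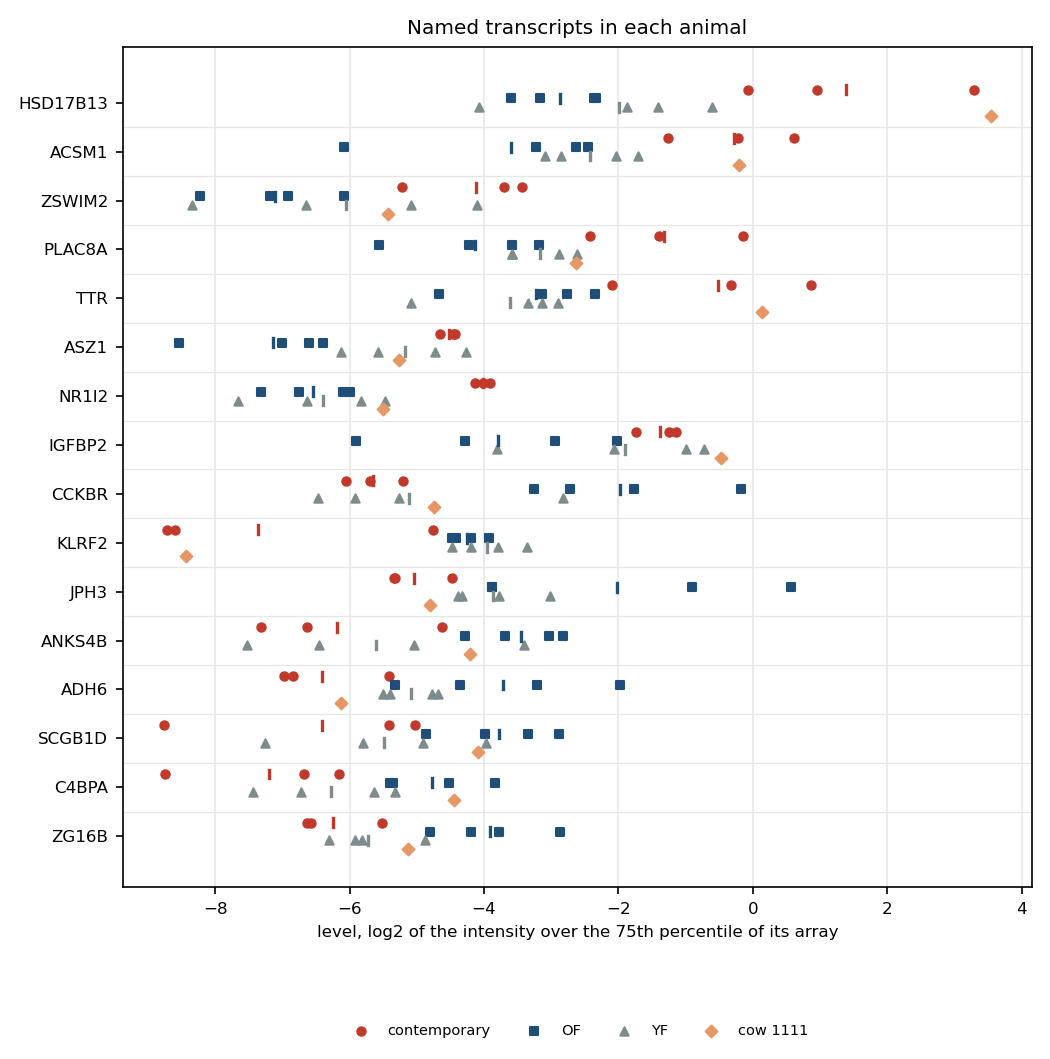
Levels of the 16 named transcripts (log2 of the intensity over the 75th percentile of the array) in each animal, with contemporary cows as red circles, OF as blue squares, YF as grey triangles and cow 1111 as an orange diamond. Short vertical lines are group means. The red and blue points do not overlap in any row, since this was part of the choice, whereas YF lie on either side.

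Of the 8 named transcripts below the OF, CCKBR had the largest difference. CCKBR, the receptor of gastrin and cholecystokinin, was at -5.69, -5.20 and -6.06 in contemporary cows and at -3.25, -0.18, -1.77 and -2.72 in OF. The groups were far apart, and the difference was -3.67 (SE 0.69), a level 12.7-fold lower. The difference from the YF was -0.53, and 3 of the 4 YF lay between -6.47 and -5.27. KLRF2, a lectin-like receptor of natural killer cells, was at -8.60, -8.71 and -4.76 in contemporary cows and at -4.19, -4.47, -3.93 and -4.41 in OF. Contemporary cows 1068 and 1128 lay near background, cow 1129 lay just below the OF, and cow 1111 was at -8.43. The difference was -3.10 (SE 0.91), and with normexp it was -0.93. Without cow 1129, the contemporary cow nearest to the OF, it was -4.40 and the only transcript called at that setting, with an adjusted p of 0.0129 (limma). Without cow 1068 or cow 1128 it was -2.48 or -2.43, with adjusted p of 0.577 and 1.0 (limma).

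JPH3, a junctophilin of excitable cells, and ADH6, an alcohol dehydrogenase, were highest in the OF arrays that were rich in smooth muscle transcripts. JPH3 was at -5.34, -5.33 and -4.47 in contemporary cows and at -3.88, -0.90, -3.88 and 0.57 in OF, a difference of -3.02 (SE 1.11) that was -2.16 without OF 2258 and -1.13 with the smooth muscle score as a covariate. ADH6 was at -5.42, -6.97 and -6.84 against -5.32, -3.21, -4.35 and -1.97. The lowest OF lay only just above the highest contemporary cow. ANKS4B, a scaffold of microvilli in brush-border epithelia, differed by -2.74 (SE 0.66), with levels of -7.32, -4.62 and -6.64 in contemporary cows and of -3.03, -2.83, -3.68 and -4.28 in OF.

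The other 3 encode secreted proteins. SCGB1D, a secretoglobin, was at -5.03, -8.76 and -5.42 in contemporary cows and at -3.98, -3.35, -2.89 and -4.86 in OF. C4BPA, which binds complement C4b and restrains the complement cascade, was at -6.68, -6.16 and -8.74 against -3.84, -4.52, -5.40 and -5.35. ZG16B, a lectin-like secretory protein, was at -6.63, -5.52 and -6.58 against -4.19, -2.87, -3.77 and -4.80, a difference of -2.33 (SE 0.48). The 2 probes of ZG16B gave -3.26 and -1.41. Without OF 2258 the differences of these 3 were -3.0, -2.61 and -2.63. Single contemporary cows near background carried part of the first 2, since SCGB1D was -2.63 over all animals and -1.46 without cow 1128, and C4BPA was -2.41 and -1.64 without cow 1129. ADH6, KLRF2 and C4BPA were well above background on 1 of 3 contemporary arrays each. The next transcript by that rule would have had a difference of -2.09.

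The gene lists were described by counts and medians. No member of any of the 25 lists passed the adjusted threshold. Of all transcripts tested, 43.6% had a positive and 56.4% a negative difference, and the groups were apart, that is, did not overlap, for 5.79%; these are the shares to hold beside the counts that follow. List members were named for being among the most abundant of their list. Those said to be apart, and BLA-DQB and LPL, were named after their values were seen.

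Markers of cell types described what the biopsies held. All 16 tested smooth muscle genes had a negative difference, with a median of -1.91 that was -1.03 without OF 2258 and -1.54 without OF 0234. The differences of CNN1 (calponin), DES (desmin) and MYL9 (a myosin light chain) were -2.47, -1.94 and -0.13, and only those of SYNPO2 did not overlap. The score of the list, the mean deviation of its members from their average over the 7 arrays, was -0.92, -1.22 and -1.08 in contemporary cows and -1.32, 1.82, -0.66 and 3.38 in OF 0233, 0234, 0245 and 2258. OF 0233 thus had a lower smooth muscle score than any contemporary cow. Of 18 epithelial genes, 14 were higher (median 0.37), but without OF 2258 the median was -0.33. With the smooth muscle score as a covariate the epithelial median was -0.70. The epithelial genes CLDN3, ST14, EPCAM and KRT8 differed by 0.20, 1.04, 0.56 and 0.41, and all 4 were lowest in OF 2258.

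All 19 tested genes of the motile cilium were higher in contemporary cows, with differences of 0.65 to 2.35 and a median of 1.36. Their score was 0.10, 1.27 and 1.13 in contemporary cows 1068, 1128 and 1129 and -0.13, 0.04, 0.58 and -2.98 in OF. Cow 1068 lay among the OF, and OF 2258 lay far below the rest. Without OF 2258 the median was 0.64, and all 19 differences were still above 0. TPPP3, a tubulin-binding protein, was at 4.13, 4.64 and 4.55 in contemporary cows and at 3.46, 3.91, 4.33 and 2.80 in OF. For DNAH5, a dynein heavy chain of the outer arm, the levels were -2.07, -1.31 and -1.53 against -2.64, -2.87, -2.14 and -6.82, and the highest OF lay only just below the lowest contemporary cow. YF were as spread as OF, with scores between -1.24 and 1.70.

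Of the 16 stromal genes, 14 were higher in contemporary cows (median 0.50, and 0.64 without OF 2258). The collagens COL3A1, COL1A2 and COL1A1 differed by 0.53, 0.65 and 0.58, and VIM (vimentin) by 0.47. THY1, a surface protein of fibroblasts, was at 4.33, 4.04 and 3.99 in contemporary cows and at 3.22, 3.83, 3.36 and 3.27 in OF, and FBLN1 (fibulin) was apart as well, at 0.61 (SE 0.20). Of the 14 endothelial genes 13 were higher (median 0.31, and 0.34 without OF 2258). TEK, TIE1 and ENG, all receptors of endothelial cells, were apart (21.4% of the 14, beside 5.79% of all transcripts), with differences of 0.71, 0.27 and 0.47. Of 16 leukocyte genes 11 were higher, with a median of 0.10, but without OF 2258 only 6 were, with a median of -0.08, and without contemporary cow 1129 the median was -0.10. CD14 of monocytes was apart on the high side (0.44) and GZMA (granzyme A) on the low side (-0.60). Mast cell genes had a median of 0.63 over 7 genes (0.51 without OF 2258, 0.26 without contemporary cow 1128 and 0.06 with normexp), and GATA2 and KIT, the most abundant, differed by -0.12 and 0.05. Plasma cell genes had a median of -0.35 over 7, of which 1 was higher, and -0.34 without OF 2258, but without contemporary cow 1068 the median was 0.25 with 4 higher. Among 6 erythrocyte genes (median -0.05, and 0.02 without OF 2258), HBB was at 1.39, -0.71 and 1.75 in contemporary cows and at -1.52, -1.12, -1.47 and -1.11 in OF, whereas HBA, the partner chain of haemoglobin, differed by -0.00.

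**Figure D2:**
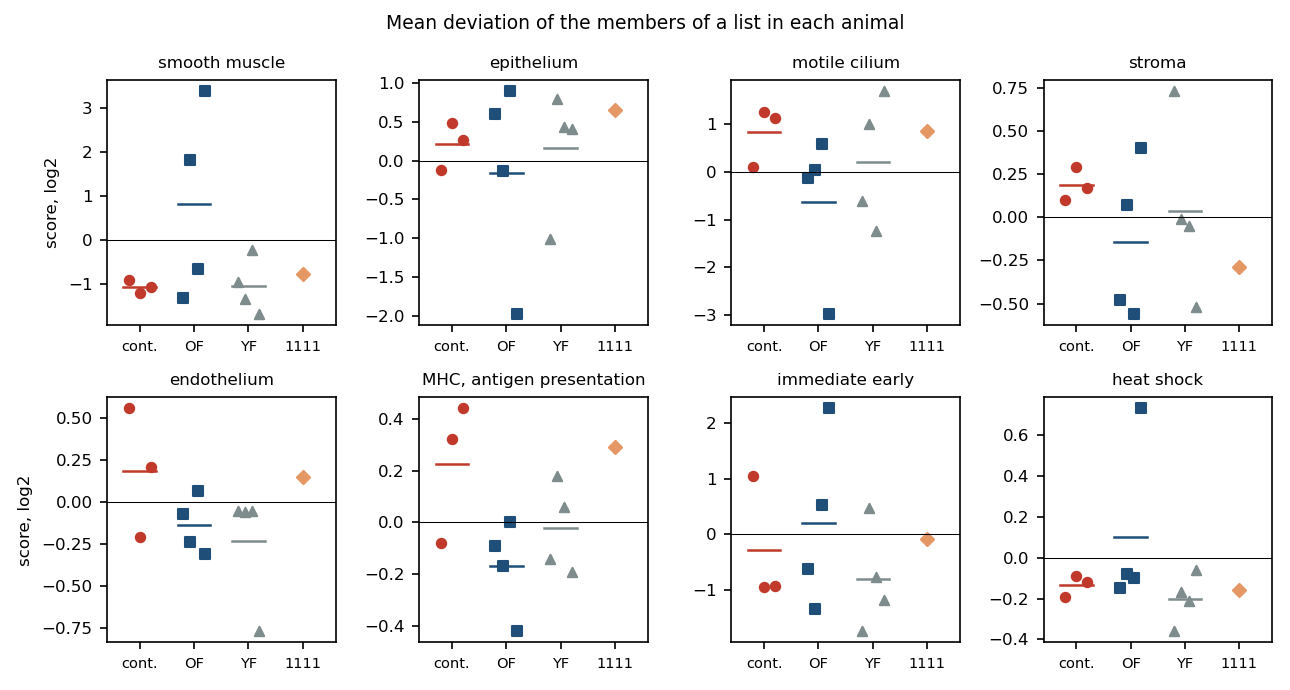
Scores of 8 gene lists in each animal, as the mean log2 deviation of the list's members from their average over the 7 contemporary and OF arrays. Contemporary cows (cont.) are red circles, OF blue squares, YF grey triangles and cow 1111 an orange diamond, horizontal bars are group means, and the vertical scales differ between panels. OF 2258 is the highest OF for smooth muscle (3.38), immediate early (2.27) and heat shock (0.73) genes and the lowest for epithelium (-1.97) and motile cilium (-2.98).

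Genes of antigen presentation were higher in contemporary cows in 22 of 24 cases, with a median of 0.42 (0.30 without OF 2258 and 0.21 without contemporary cow 1129), and 5 of the 24 were apart (20.8%, beside 5.79% of all transcripts). These molecules carry peptides to the cell surface for T cells, and their genes are highly polymorphic between animals. JSP, a class I heavy chain, was at 4.83, 4.91 and 5.14 in contemporary cows and at 4.09, 3.94, 4.33 and 3.52 in OF, a difference of 0.99 (SE 0.22). B2M, the light chain of class I, differed by 0.47 (SE 0.18). Among class II chains, BOLA-DRB3 was at 3.65, 3.63 and 3.68 in contemporary cows and at 2.97, 3.05, 3.19 and 3.02 in OF, a difference of 0.59 (SE 0.14), and BOLA-DRA differed by 0.53 (SE 0.15). BOLA-DOA was apart by 0.56 as well. For BLA-DQB the contemporary cows spread from 0.16 to 2.68 while the OF lay between -0.14 and 0.34. The BOLA transcript, the most abundant of the list, differed by 0.23 (SE 0.24). Within each class some genes are near copies of each other, and how far their probes tell alleles and copies apart was not tested.

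Interferon-stimulated genes, the ones that respond to the conceptus in early pregnancy, had a median of 0.21, with 27 of 32 higher. Without OF 2258 the median was 0.13. IFI6, IRF9, IFI27 and OAS1Y differed by 0.44, 0.09, 0.68 and 0.06. RTP4 and RSAD2 were apart on the high side, at 0.46 and 0.48, and EIF2AK2, the kinase that senses double-stranded RNA, on the low side, at -0.53 (SE 0.19). Genes of uterine receptivity and histotroph were divided, with 17 of 29 higher and a median of 0.16 that was -0.05 without OF 2258. GRP, LTF, CST6 and TDGF1 differed by -0.19, 0.51, -0.34 and -1.21, all within their spread. FST (follistatin), which binds activin, was at 3.12, 2.79 and 2.44 in contemporary cows and at 1.78, 2.25, 1.47 and 0.71 in OF, a difference of 1.23 (SE 0.37). ANPEP, a surface peptidase, was apart by 0.61 (SE 0.20). LPL, the lipase of triglyceride-rich lipoproteins, differed by -2.26 (SE 0.88) and was highest in the smooth muscle-rich OF 0234 and 2258.

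The prostaglandin pathway had a median of 0.02 over 18 genes (-0.04 without OF 2258), and PTGES, the inducible synthase of prostaglandin E2, stood out of it. PTGES was at 0.30, 1.16 and -0.05 in contemporary cows and at -1.27, -1.10, -1.23 and -1.29 in OF. The OF were tightly grouped, and every contemporary cow lay above them. The difference was 1.69 (SE 0.28, adjusted p = 0.518, limma), and it was 1.67 without OF 2258. Cow 1111 was at -0.95, near the OF, and the difference from YF was 0.72. AKR1B1, PTGES3, HPGD and PTGDS, the abundant enzymes of the pathway, differed by 0.02, 0.03, 0.24 and 0.18. Steroid and oxytocin signalling had a median of -0.06 over 18 genes (-0.08 without OF 2258), and FKBP5, a chaperone partner of steroid receptors, was apart at -0.80 (SE 0.29). PGRMC1, HSD17B10 and HSD11B2 differed by 0.01, -0.15 and 0.42.

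In the remaining lists the medians lay between -0.49 and 0.22. Collagens (34 genes, 18 higher, median 0.03; 25 higher and 0.18 without OF 2258) held COL4A3 and COL4A4 of basement membranes, which were apart at 1.86 and 0.86, largely through OF 2258, since these were 0.81 and 0.39 without it. Matrix turnover (24 genes, median -0.02, and 0.21 without OF 2258) held PLAT, ADAMTS5 and PLAUR, apart at 1.12, 0.63 and 0.44. TIMP2, ADAMTS1 and MMP2 differed by -0.11, 0.25 and 0.58. Of 21 immediate early genes 20 were lower, with a median of -0.49, but without OF 2258 the median was 0.26, and without contemporary cow 1068 it was -1.29. Their score was 1.05 in contemporary cow 1068 and -0.96 and -0.93 in the other 2. FOS was at 6.73, 2.97 and 3.24 in contemporary cows and at 3.66, 2.27, 5.20 and 7.90 in OF, so each group held high and low animals. Heat shock genes (17 of 20 lower, median -0.13) had a median of 0.00 without OF 2258, and HSPA6 was apart at -1.01 (SE 0.37). Proliferation genes had a median of 0.22 over 24 (0.12 without OF 2258), with TPX2 and CCNE2 apart on the high side (0.84 and 1.05) and NUSAP1, also of the mitotic spindle, on the low side (-1.15).

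Medians were 0.17 for inflammation and granulocytes (25 genes), 0.02 for imprinted genes (20), 0.02 for detoxification (27), -0.01 for senescence and damage response (18) and -0.06 for the respiratory chain (47). Without OF 2258 these medians were 0.09, 0.08, -0.06, 0.13 and -0.04, in the same order, and that of inflammation was -0.10 without contemporary cow 1129. In these 5 lists no transcript was apart. The inflammatory genes M-SAA3.2, NFKBIA and CXCL3 differed by 0.60, 0.02 and -0.50, and the senescence-associated IGFBP7 and GADD45A by 0.63 and -0.08. All 47 respiratory chain genes lay between -0.27 and 0.23, and UQCRH, COX6A1 and ATP5B differed by -0.14, 0.08 and -0.01. In the detoxification list, GSTP1 and GSTM3 differed by 0.05 and 0.29.

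**Figure D3:**
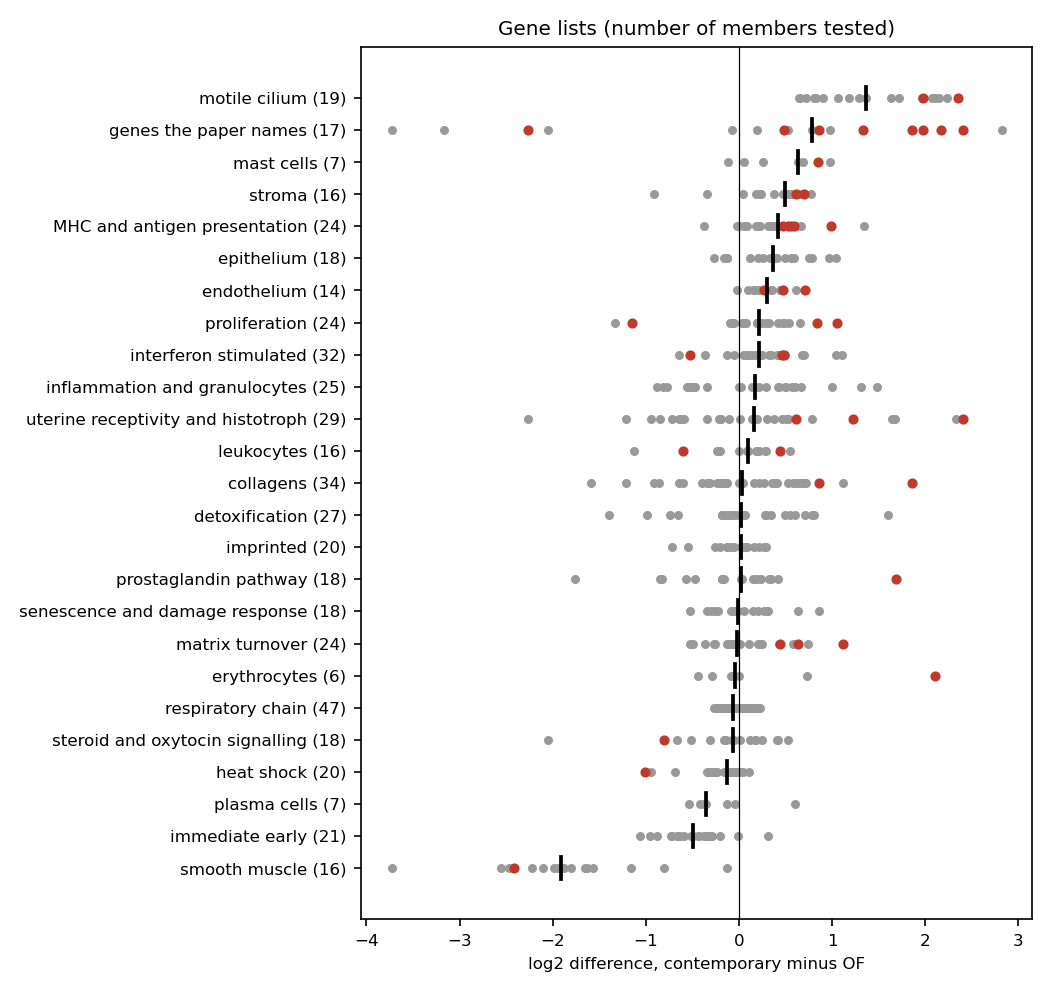
Log2 differences (contemporary minus OF) of the tested members of 25 gene lists, 1 point per gene, with black lines at the medians, red points where the 3 contemporary cows and 4 OF did not overlap and grey points elsewhere. Smooth muscle (median -1.91) and motile cilium (1.36) lie furthest from 0.

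Of the 19 genes that the study names for OF against YF by fold change or RT-qPCR, 17 were tested here. They were chosen on the OF arrays that also enter this comparison, so that their differences are not independent evidence. Their median difference was 0.78 (0.39 without OF 2258). There were 7 apart on the high side and 1 on the low side (47.1% of the 17, beside 5.79% of all transcripts), from which nothing can be read, since the OF arrays chose the list. CDH11, a cadherin of mesenchymal cells, was at 1.65, 1.72 and 1.62 in contemporary cows and at 0.78, 0.38, 0.59 and -0.41 in OF, a difference of 1.33 (SE 0.29). ADAMDEC1, a metalloprotease of the ADAM family, differed by 2.17 (SE 0.78), and TFAP2C, a transcription factor of trophoblast and epithelium, by 1.98 (SE 0.55). IGFBP2, RSAD2, COL4A3 and COL4A4, given above, were the others on the high side. DTNA (dystrobrevin) was apart on the low side at -2.27 (SE 1.01). The smooth muscle actin ACTG2, ASB2, which is expressed in muscle, and OXTR, the oxytocin receptor, differed by -3.73, -3.17 and -2.05, and their SEs of 1.79, 1.58 and 1.55 show how far the OF lay from each other.

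For the other genes of that list, SCARA5 differed by 0.78, SERPINA14 by 0.53, IGFBP1 by 0.19, SMPDL3B by -0.07, CLEC4E by 2.82 (SE 1.61) and CPA3, a protease of mast cells, by 0.98. Set against YF, the contemporary cows differed by 0.26 for CDH11, 0.68 for ADAMDEC1, 0.37 for TFAP2C and -0.27 for ACTG2. CCL21 and ACTA1 did not pass the filter. The transcripts of ACTA1 differed by -4.94 and -4.71, and neither was apart. CCL21 was at -3.13, -7.08 and -8.78 in contemporary cows and at -7.61, -1.54, -3.64 and 0.49 in OF, and it was well above background on 1 contemporary array.

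Since the contemporary cows have no stated relation to the clones, they were also set against all 8 clones, the 4 OF and the 4 YF together. This comparison was added after the data were seen. It took the 8 clones as 1 group, with no term for OF and YF. Since the clones share a nuclear genome, their spread holds no difference of nuclear genotype between animals. The p-values therefore apply to this set of clones and not to cows at large. Of 20082 transcripts tested, 11 (0.0548%) passed an adjusted p of 0.05 in limma, 6 higher (0.0299%) and 5 lower (0.0249%) in contemporary cows, and 901 (4.49%) had an unadjusted p of 0.05. The groups did not overlap for 248 (1.23%). In the comparison with OF alone the same 11 had adjusted p between 0.321 and 0.677. The set was small and in part fragile. Leaving out 1 of the 11 animals at a time gave between 1 and 23 calls, and the calls were not always among the 11. Without contemporary cow 1129 the 1 call was KLRF2, so that 0 of the 11 remained, and without contemporary cow 1128 there were 2 calls, of which ENSBTAT00000035482 was 1 of the 11. Without YF 1072 the 1 call was PROSER1. Without OF 2258 there were 23 calls, which held all 11. With the slide as a block 4 were called. Over the 18 alternative settings, the direction of all 11 held. With 1 animal left out it could not turn, since in each of the 11 every contemporary cow lay beyond all 8 clones. PROSER1 was called in 16 settings, ENSBTAT00000035482 in 15 and DEFB1 and PPIF in 12 each. The other 7 were called in 5 to 8 of the 18. With normexp, 3 were called, and the differences of PROSER1, PPIF and DEFB1 from all clones were 1.33, 0.64 and 0.65.

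PROSER1, a proline- and serine-rich protein gene (chromosome 12, 23241975 to 23272130 on UMD3.1), had the smallest p in both comparisons. It was at -0.80, -0.83 and -0.72 in contemporary cows and at -2.07, -2.31, -2.23 and -2.33 in OF, and YF lay between -2.88 and -2.20. Each group was tight, and cow 1111, at -0.61, lay with the contemporary cows. The difference was 1.45 (SE 0.15) from OF and 1.54 (SE 0.16, adjusted p = 0.0134, limma) from all clones. Its 2 probes, which gave 1.42 and 1.48 against OF, overlap by 40 of their 60 bases and are therefore not independent. The stretch shown here, bases 21 to 50 of the first probe and bases 1 to 30 of the other, is common to both (in capitals, 5′ to 3′ as the array file gives it).
PROSER1: TAGTTACCCTTCAGCACCAGGAACACCATT
A second, shorter transcript of PROSER1 (23241975 to 23261088), with 2 probes of its own, differed by -0.04 (SE 0.21), at -2.79, -3.35 and -3.20 in contemporary cows and at -2.78, -3.31, -3.10 and -3.10 in OF. The difference was thus measured by 1 pair of overlapping probes and not by the other pair. NHLRC3, the neighbouring gene, differed by -0.15 (SE 0.28).

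On chromosome 12, 2 overlapping transcripts with no symbol in the array's annotation were lower in contemporary cows. ENSBTAT00000035482 (73574462 to 73704802) was at -6.72, -5.16 and -5.60 in contemporary cows, at -2.50, -3.02, -2.63 and -3.71 in OF and at -5.44 in cow 1111, a difference of -2.86 (SE 0.44) from OF and of -3.01 (adjusted p = 0.0171, limma) from all clones. ENSBTAT00000030481 (73574915 to 73692855) was at -5.73, -5.64 and -5.90 against -3.46, -3.88, -4.27 and -4.92. Their probes do not resemble each other, the longest run shared by the first probes being 6 bases, as the first 30 of their 60 bases show, so that the agreement in direction came from different sequences of 1 locus.
ENSBTAT00000035482, first probe: tgtgaatggataatggttttggattcaggg
ENSBTAT00000030481, first probe: cttgccaggactattctcaggaagaatcag
The first probe of ENSBTAT00000035482 was between -7.27 and -6.02 in contemporary cows and between -3.82 and -2.62 in OF. The probes of ENSBTAT00000030481 gave -1.38 and -1.86 against OF. Its second probe was well above background on only 2 of 12 arrays and lay between -8.71 and -8.44 in contemporary cows.

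Of the 11 transcripts, 3 lie in the cluster of beta-defensin genes on chromosome 27, which encodes antimicrobial peptides of epithelia. DEFB1 (5483408 to 5539158) was at -5.28, -5.82 and -5.99 in contemporary cows and at -7.56, -7.47, -7.00 and -7.01 in OF, a difference of 1.56 (SE 0.25). Other transcripts with the symbol DEFB1, ENSBTAT00000054965 and ENSBTAT00000064773, differed by only 0.50 (SE 0.46) and 0.55 (SE 0.20), and only the latter was apart. ENSBTAT00000050266 (5221877 to 5227956) was at -5.34, -3.24 and -3.16 against -6.50, -6.89, -7.96 and -6.69, and it was well above background on 1 of 4 OF arrays. ENSBTAT00000066254 (5327039 to 5328959) was at -3.21, -3.0 and -1.95 against -4.92, -4.80, -6.43 and -4.89. The differences of these 2 were 3.1 (SE 0.60) and 2.54 (SE 0.48). In all 3, every contemporary cow lay above every OF and YF.

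The 3 transcripts share probe sequence in part. A probe of each, of 60 bases, holds a run of 18 bases (in capitals) that is found in 3 probes of the array, and 30 bases around it are shown so that the likeness can be seen.
DEFB1: cgccctCAGTAAAATGCTGCAGGTggaggt
ENSBTAT00000050266: ggcgccCAGTAAAATGCTGCAGGTggaggt
ENSBTAT00000066254: ggcgccCAGTAAAATGCTGCAGGTcgtggt
For DEFB1 that probe carried the difference, at -4.09, -2.88 and -3.07 in contemporary cows and between -6.28 and -5.52 in OF, while the other probe was well above background in cow 1111 alone, at -2.24. For the other 2 transcripts both probes showed a difference, of 3.41 and 2.79 for ENSBTAT00000050266 and of 2.06 and 3.01 for ENSBTAT00000066254. How far 1 RNA binds to the probes of several defensins was not tested.

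Within 300000 bases of these 3 transcripts, 14 others were tested, of which 3 had a difference of 1 or more and 1 of -1 or less, together 28.6% beside 4.48% of all transcripts. Some of the 14 overlap each other or the 3, so that they are not separate genes. DEFB7 (5219284 to 5223726) differed by 2.30 (SE 0.71), ENSBTAT00000063120 by 1.72 (SE 0.25) and ENSBTAT00000022881 by 1.79 (SE 0.50), whereas LAP, the lingual antimicrobial peptide, differed by 0.42 (SE 0.78), DEFB by -1.0 (SE 0.93) and ENSBTAT00000063981, which starts at the same base as ENSBTAT00000066254, by 0.26 (SE 0.17). MGC157082 on chromosome 18 (61318606 to 61401807) was at -4.59, -4.78 and -3.74 in contemporary cows and at -6.46, -5.80, -6.34 and -6.92 in OF, its 2 probes giving 3.44 and 0.58. The windows around the 2 called transcripts of chromosome 18, MGC157082 and ENSBTAT00000063982, held 19 other tested transcripts. Of these, 5 had a difference of 1 or more (26.3%, beside 4.48% of all transcripts), and 5 were apart, beside 5.79% of all transcripts. Near MGC157082, MGC139164 differed by 1.03 and ENSBTAT00000012086 by 1.05, both apart. ENSBTAT00000023823, which covers nearly the same bases as the latter, was apart by 1.02 and ENSBTAT00000002953 by 0.79. ENSBTAT00000020054 and ENSBTAT00000020051 differed by 1.58 (SE 1.08) and 1.12 (SE 0.57) but were not apart. ENSBTAT00000019911, which lies inside MGC157082, differed by 0.15, ZNF331 by 0.19 and the tested transcript of NLRP12 by 0.52, none of them apart.

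The other 4 lie on their own. PPIF, or cyclophilin D, a regulator of the mitochondrial permeability pore (chromosome 28, 35167545 to 35173642), was at -4.10, -3.95 and -3.65 in contemporary cows and at -5.63, -5.35, -5.79 and -5.47 in OF, a difference of 1.66 (SE 0.19). All of its 4 probes showed it, between 1.54 and 1.84, and cow 1111 was at -3.89. NINJ2, a ninjurin of the cell surface (chromosome 5), was at -5.70, -5.74 and -5.88 against -4.80, -4.63, -4.91 and -4.85. C19H17orf98, an open reading frame on chromosome 19, was at -5.36, -4.99 and -4.70 against -3.44, -2.84, -3.37 and -2.27. ENSBTAT00000063982 on chromosome 18 (58485273 to 58486123) differed by -1.12 (SE 0.17).

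**Figure D4:**
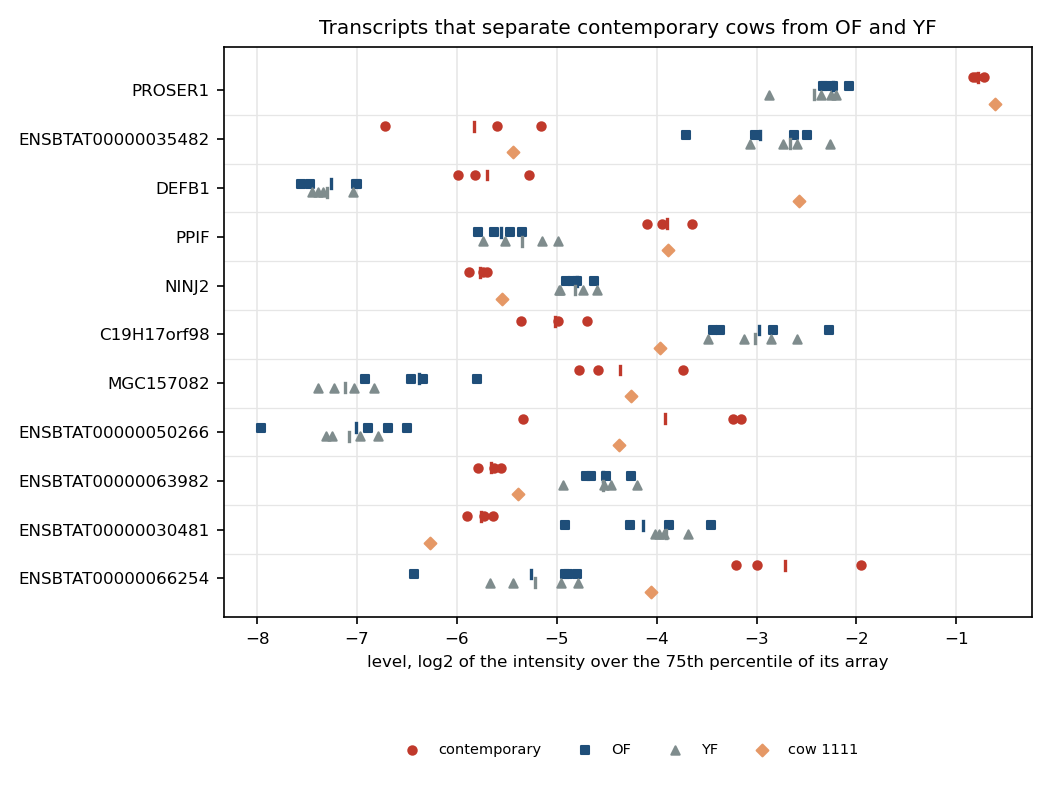
Levels of the 11 transcripts called in contemporary cows against all 8 clones (log2 of the intensity over the 75th percentile of the array) in each animal, with contemporary cows as red circles, OF as blue squares, YF as grey triangles and cow 1111 as an orange diamond; short vertical lines are group means. In every row cow 1111 lies outside the range of OF and YF, on the contemporary side.

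Cow 1111, which entered none of these fits and lay on the other slide, was set beside the 2 kinds of difference. For the 11 transcripts it lay beyond all 8 clones on the contemporary side in 11 of 11, against 14.3% of the 20082 transcripts, and on the contemporary side of the midpoint of the group means in 9 of 11, against 50.6%. The exceptions to the midpoint were C19H17orf98, at -3.97, and ENSBTAT00000066254, at -4.06. In an alternative fit against all clones that included cow 1111, 18 transcripts were called, 9 of them among the 11. DEFB1 and ENSBTAT00000066254 were no longer called there (adjusted p of 0.161 and 0.0599, limma). For the 650 transcripts with an unadjusted p of 0.05 and groups apart against OF alone, it lay on the contemporary side of the midpoint in 354 (54.5%), and over all 19914 transcripts in 57.0%. It lay there for 7 of the 8 named higher transcripts and 5 of the 8 named lower ones. These are counts over transcripts of 1 animal, given with no test.

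Against YF alone, the contemporary cows also had 0 calls (0.0% of 19993 transcripts, smallest adjusted p 0.0664, limma) and 606 transcripts at an unadjusted p of 0.05 (3.03%). That comparison shares the contemporary arrays with the one against OF. For the named transcripts, the differences from YF were 3.38 for HSD17B13, 3.1 for TTR, 2.38 for NR1I2 and -3.40 for KLRF2, and they were 0.66 for ASZ1 and -0.51 for ZG16B. Whether the differences from OF and from YF themselves differ was not tested.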

How the data were processed

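The authors deposited 1 Agilent Feature Extraction file (version 10.7.3.1) for each of 12 animals. The authors deposited each probe's processed intensity on a linear scale, from which the scanner software had subtracted background and which had not been scaled across arrays. The labels name dyes other than Cy-3 for the contemporary cows, but each file holds 1 channel. Of 61399 probes, 66 flagged as outliers somewhere were dropped; log2 intensity minus the array's 75th percentile was averaged over spots, then over the probes of a transcript (26323 transcripts, 21807 with 2 probes). Symbols came from the array files or the study's own list, and positions (UMD3.1) from the array files; 4297 transcripts had no symbol.

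Groups were compared in limma 3.58.1 (R 4.3.3; lmFit, eBayes, two-sided, Benjamini-Hochberg at 0.05) on transcripts of which at least 1 probe exceeded background throughout a group. The replicate was the animal. Limma was tested on simulated data. A gene in a list took its tested transcript of highest mean level. Named transcripts were those called, or, with fewer than 8 called in a direction, the 8 largest differences among transcripts with a symbol, 1 per symbol, at an unadjusted p of 0.05 with groups that did not overlap. Of each list, up to 4 of the most abundant members were named. Every gene that the study names for OF against YF by fold change or RT-qPCR was given. The comparison, the members and the lists were chosen with earlier results of these data known. Alternatives were quantile normalization, median centring, normexp with an offset of 50, the brightest probe, each probe on its own, 2 other filters, all 3 groups in 1 fit, the slide as a block, trend and robust eBayes, array weights, a smooth muscle covariate, cow 1111 included, FCROS (ranks of pairwise fold changes; trim 0.25, f-values beyond 0.025 and 0.975, fold 1.5) and each animal left out. Contemporary cows against all 8 clones, and its alternatives, were added after seeing the data.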

Additional observations from a re-analysis of the deposited data

Results flagged for a closer look

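Among 52 sets of 4 OF values examined (27 transcripts and 25 list scores), an animal lay far from the other 3 in 3 cases, and about 1 in 20 such sets would be picked out by chance. The heat shock score was 0.73 in OF 2258 and between -0.15 and -0.08 in the other OF. The detoxification score was -0.65 in OF 2258 and between 0.15 and 0.21 in the others. ENSBTAT00000066254, the defensin transcript, was at -6.43 in OF 0245 and between -4.92 and -4.80 in the others. OF 0245 was the OF on the other slide.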

How the results depend on the processing

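For contemporary cows against OF, array weights called 26 transcripts (15 higher, 11 lower) and the fit with cow 1111 included 2 (PROSER1 and PPIF), and leaving out 1 animal gave 0 to 1. FCROS called 1422 (853 higher, 569 lower) of all 26323 transcripts, without the filter. Its f-values are tails of the ranks of all transcripts and are not adjusted. Some transcripts fall beyond its limits whatever the data, so its count cannot be set beside the others. The remaining settings called 0. At an unadjusted p of 0.05 there were 1911 probes when each was tested on its own, 3252 transcripts with array weights, 1490 with the smooth muscle score as a covariate and 655 to 1688 when 1 animal was left out, the highest without contemporary cow 1068. The count against all 8 clones was 3 with the brightest probe, 3 with normexp, 4 with the slide as a block, 18 with cow 1111 included and 1 to 23 when 1 animal was left out. The 16 named differences kept their direction in all 296 refits that gave a value, 3 of which passed the threshold (ZSWIM2 and NR1I2 with array weights, KLRF2 without contemporary cow 1129). In 112 of the 296, 1 animal was left out, and the direction could not turn, since groups that did not overlap were part of the choice. Several other refits left the group means as they were, so this count does not measure how stable the differences are. Their sizes held less well. By over 1.5 times on the log2 scale, 11 of 16 were smaller with normexp (C4BPA -0.76, SCGB1D -1.11, ADH6 -1.16, ANKS4B -1.23, ZG16B -1.46, IGFBP2 1.55 and CCKBR -2.17, beside the 4 given above), 3 with the smooth muscle covariate (ADH6 -1.45, beside JPH3 and IGFBP2), TTR with array weights (1.53) and SCGB1D without contemporary cow 1128, while SCGB1D was larger with array weights (-4.23). The list medians changed sign in 79 of 475 refits. The cause was not tested. No paired analysis was possible because the animals of the 2 groups share no numbers or pairs. With 3 and 4 arrays, a p above the threshold does not show that groups were alike. For transcripts near background, the size of a difference depends on the background correction.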
